A study of Mus musculus with 23 samples.

Results

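The 10 imprinted growth genes described here are H19, Igf2, Igf2r, Dlk1, Meg3, Mest, Peg3, Plagl1, Grb10 and Ndn. They were chosen by name, and each matched 1 of the 32285 gene rows in all 11 gene-expression matrices of the series. The cells were blood stem and progenitor cells from mouse bone marrow, sorted as c-Kit+ Sca1+ Lineage-. Genomic imprinting means that 1 parental copy of a gene is silenced according to its parent of origin. Several imprinted genes form a growth-control network around the insulin-like growth factors: maternal copies tend to restrain growth and paternal copies tend to promote it. In bone marrow, a number of them are known for higher expression in dormant stem cells than in their dividing progeny. Polycomb repressive complex 2, in which EZH2 is the catalytic subunit and JARID2 an accessory subunit that guides the complex to chromatin, writes a repressive histone mark found at several imprinted regions.

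The study compared mice with a conditional loss of Jarid2 or of Ezh2 with Controls, in 2 experiments. At baseline, untransplanted, age- and sex-matched mice of 2 months gave 1 male and 1 female library for each genotype (2 Control, 2 Ezh2 KO, 2 Jarid2 KO), with 6 barcoded antibodies against Sca1, CD117, CD48, CD150, CD135 and CD201 read in the same cells. In the transplant experiment, 500000 CD45.2 donor marrow cells were given with 500000 CD45.1 competitor cells to lethally irradiated recipients, and donor cells were sorted 18 weeks later (1 Control, 2 Ezh2 KO and 2 Jarid2 KO libraries). The labels give Mx1-Cre, a Cre driven by an interferon-inducible promoter, for all groups including the Controls. They do not say whether a library is 1 mouse or a pool, so the p-values measure the spread between libraries. Donor sex is not labelled in the transplant. The histone-mark libraries of the series were not analysed here.

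After filters on depth and doublets, 73310 of 97066 barcodes were kept, 46839 at baseline and 26471 after transplantation. Summed over kept cells, a library held 83921210 to 126527222 unique molecular identifiers (UMIs) at baseline and 67629053 to 111514122 after transplantation. A level of 3 counts in a library therefore corresponds to 0.0237 to 0.0444 CPM, the UMIs of a gene scaled to the library total. Any 2 libraries shared 4 to 31 cell barcodes. Ezh2 was read at 209 and 193 CPM in the baseline Controls and 163 and 148 in Ezh2 KO, and at 185 in the transplant Control against 38.8 and 47.0 in Ezh2 KO. Jarid2 reads were higher in the libraries labelled Jarid2 KO than in Controls (215 and 205 against 159 and 150 CPM at baseline, 57.3 and 57.1 against 38.5 after transplantation). A 3′ count over the whole gene does not check a deletion of unnamed exons. The Jarid2 genotype and the baseline Ezh2 genotype therefore rest on the labels, and Jarid2 KO and Ezh2 KO mean the libraries labelled so. In the transplant libraries, 18.5% of Control cells, 73.6% and 68.7% of Ezh2 KO cells and 27.5% and 32.2% of Jarid2 KO cells had reads of Y-linked genes and none of Xist. Cells with Xist and no Y-linked reads numbered 2585 in Control and 2449 and 2509 in Jarid2 KO. Each Ezh2 KO library had fewer than 50 such cells, so few of its remaining cells were female-type. Cell sex and genotype are therefore not cleanly separated in whole-library comparisons with Ezh2 KO. The labels used here give no sex for these libraries, so male-type and female-type cells cannot be assigned to donors. Differences in this text are log2 fold changes from edgeR's quasi-likelihood test on the summed UMIs, with standard errors and Benjamini-Hochberg adjusted p-values over all genes tested, and a change counts as passed when the adjusted p is under 0.05.

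The members lie in several imprinted clusters (RefSeq, GRCm38.p6, the patch release of the mm10 build named in the submitters' processing notes). The maternally expressed long noncoding RNA H19 (chr7:142575530-142578146) and the paternally expressed growth factor Igf2 (chr7:142650768-142666816) are neighbours, with 72622 bases between them. The paternally expressed transmembrane protein Dlk1 (chr12:109452485-109463336) and the maternally expressed long noncoding RNA Meg3 (chr12:109540996-109571729) are neighbours with 77660 bases between them. Igf2r, the maternally expressed receptor that clears IGF2 to the lysosome, spans chr17:12682406-12769706. Its antisense long noncoding RNA Airn (chr17:12741311-12859884) overlaps it by 28396 bases. The remaining members stand apart: Grb10 (chr11:11930499-12037428), an adaptor that dampens insulin and IGF1 receptor signalling; Ndn (chr7:62348277-62349928), a MAGE-family protein that restrains cell growth; Plagl1 (chr10:13090832-13131694) and Peg3 (chr7:6703892-6730462), zinc-finger proteins; and Mest (chr6:30733506-30748466), a hydrolase-fold enzyme. RefSeq upstream sequence was matched for 9 of the 10 members. The 250 bases before the start of Igf2r, Meg3, Plagl1 and Ndn, 4 members on different chromosomes given as examples, are shown 5′ to 3′ on the gene's strand, with each CG dinucleotide in capitals.
Igf2r, chr17:12769707-12769956, minus strand: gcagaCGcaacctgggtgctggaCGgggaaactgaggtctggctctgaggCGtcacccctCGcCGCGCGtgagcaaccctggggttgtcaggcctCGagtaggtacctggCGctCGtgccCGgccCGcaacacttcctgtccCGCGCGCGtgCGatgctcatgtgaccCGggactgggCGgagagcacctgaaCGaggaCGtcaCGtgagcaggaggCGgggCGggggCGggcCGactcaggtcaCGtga
Meg3, chr12:109540746-109540995, plus strand, the first of its entries: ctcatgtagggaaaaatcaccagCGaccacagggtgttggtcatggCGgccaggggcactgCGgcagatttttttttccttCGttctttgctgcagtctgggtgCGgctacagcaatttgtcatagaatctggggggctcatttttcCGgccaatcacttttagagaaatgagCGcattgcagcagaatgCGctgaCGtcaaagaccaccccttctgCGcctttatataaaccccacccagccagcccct
Plagl1, chr10:13090582-13090831, plus strand: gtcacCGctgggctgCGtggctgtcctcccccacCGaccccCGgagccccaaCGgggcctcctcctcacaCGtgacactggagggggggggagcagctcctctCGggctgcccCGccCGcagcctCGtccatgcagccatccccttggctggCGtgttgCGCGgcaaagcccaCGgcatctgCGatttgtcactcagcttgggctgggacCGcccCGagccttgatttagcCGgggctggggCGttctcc
Ndn, chr7:62348027-62348276, plus strand: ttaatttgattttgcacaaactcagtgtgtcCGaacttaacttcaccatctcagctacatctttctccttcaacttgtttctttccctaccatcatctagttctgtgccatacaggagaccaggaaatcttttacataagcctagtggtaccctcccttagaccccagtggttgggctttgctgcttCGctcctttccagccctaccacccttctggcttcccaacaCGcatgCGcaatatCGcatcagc
The Igf2r window held 27 CG dinucleotides and Plagl1 held 19, against a median of 6 over 32851 upstream entries of the same length. As many as in Igf2r were found in 8.56% of all entries, and as many as in Plagl1 in 19.7%. Meg3 held 10 (37.8% of entries hold as many) and Ndn held 5 (55.6%). The Igf2r window lies inside the annotated span of Airn.

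Read depth differed widely between members. Over all 11 libraries Grb10 had 21892 UMIs, Igf2r 19636, Meg3 5416, Ndn 3399 and Dlk1 797. Mest had 437, Plagl1 179, Igf2 98, Peg3 67 and H19 58, so the statements on these 5 rest on few molecules. Peg3 had 0 UMIs in the 5 transplant libraries, each of which could have shown a level of 3 counts at 0.0269 to 0.0444 CPM. Levels of different members are not compared here.

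At baseline, surface antibodies separated 4 cell states without use of any gene reading. The stem gate was high for CD150 and low for CD48, the usual surface pattern of long-term stem cells. The gates for multipotent progenitors (MPP) were named after the usual scheme: MPP2 was high for CD150 and CD48, MPP3 was high for CD48 and low for CD150 and CD135, and MPP4, the lymphoid-primed progenitor, was high for CD135 and low for CD150. High and low mean tertiles, within each library, of antibody counts centred within each cell. In raw counts the MPP2 gate was below the stem gate in CD150, with library medians of 22 to 56 against 67 to 106. Its CD117 medians were 82 to 269.5 against 273 to 357. The MPP2 gate is therefore not a set of cells as high in CD150 as the stem gate. Between the stem and MPP4 gates, the gene readings of Slamf1 and Flt3 followed the antibodies. Slamf1, which encodes CD150, averaged 19.5 CPM in the stem gate and 0.345 in MPP4. Flt3, which encodes CD135, averaged 48.8 and 562. Procr, the gene of CD201, averaged 45.0 and 13.2 CPM. The MPP3 gate held only 28 to 118 cells per library.

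Most members were highest in the stem gate. Grb10 averaged 96.1 ± 14.1 CPM (SD, n = 6 libraries) there, 18.7 ± 11.1 in MPP2, 10.7 ± 7.19 in MPP3 and 5.06 ± 2.69 in MPP4. Its lowest, median and highest stem-gate values were 78.7, 98.1 and 117 CPM, against 2.21, 4.67 and 8.87 in MPP4. The 2 sets did not overlap, and the stem gate was 4.34 ± 0.22 log2 units (SE) above MPP4 (adjusted p = 3.05e-12), 2.39 above MPP2 (7.25e-09) and 3.16 above MPP3 (1.35e-07).

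Meg3 was also highest in the stem gate. It ranged from 21.6 to 49.6 CPM in the stem gate, with a median of 26.9, and from 0.194 to 13.4 in MPP4, with a median of 1.49. The gates did not overlap, but 1 library, the female one labelled Jarid2 KO, held the MPP4 value of 13.4 CPM, and the other 5 lay at 0.194 to 3.48. Stem exceeded MPP4 by 3.80 ± 0.49 log2 units (adjusted p = 2.3e-06) and MPP2 by 5.06 ± 0.66 (1.73e-06). Against MPP3, where a single Meg3 UMI was read, the pooled counts of 3371 and 1 gave a ratio of 165 with a counting interval of 29.5 to 6507.

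Ndn averaged 15.2 ± 2.23 CPM in the stem gate (12.8 to 18.5) and 2.55 ± 0.718 in MPP4 (1.92 to 3.61), again without overlap. The stem gate stood 2.53 ± 0.18 log2 units above MPP4 (adjusted p = 5.18e-10), 3.73 above MPP2 (1.44e-10) and 3.64 above MPP3 (3.94e-07). Dlk1 ranged from 1.55 to 7.49 CPM in the stem gate and from 0.129 to 1.28 in MPP4, a difference of 2.49 ± 0.41 (adjusted p = 4.22e-05), and it was 2.31 ± 0.51 above MPP2 (5.6e-04). Plagl1, with 52 UMIs in the stem gate and 7 in MPP4, was 3.30 ± 0.62 higher in the stem gate than in MPP4 (1.95e-04) and did not pass against MPP2 or MPP3. Mest passed against MPP2 (1.07 ± 0.40, adjusted p = 0.029), a call lost when either Jarid2 KO library, the female Control or the female Ezh2 KO library was left out (adjusted p up to 0.0956).

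Igf2r had another order. It averaged 29.3 ± 7.22 CPM in the stem gate and 32.8 ± 11.7 in MPP4, where 2 of 6 libraries had the stem gate higher, and this difference did not pass (-0.18 ± 0.13, adjusted p = 0.268). It was higher in the stem gate than in MPP2 (12.5 ± 4.25 CPM, 1.12 ± 0.15 log2 units, 1.49e-06) and MPP3 (11.5 ± 5.03 CPM, 1.27 ± 0.22, 1.02e-04). H19, Igf2 and Peg3 did not pass the low-count filter of this fit. Their pooled counts in the stem gate and MPP4 were 36 and 1 for H19, a ratio of 51.4 (counting interval 8.66 to 2087). They were 56 and 1 for Igf2 (80.0, 13.8 to 3216) and 42 and 9 for Peg3 (6.67, 3.20 to 15.6).

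Over the fit of 15663 genes, 6 of the 7 members tested passed in stem against MPP2, 5 against MPP3 and 5 against MPP4, all higher in the stem gate. In the same comparisons 57.9%, 39.3% and 42.8% of all genes passed, with 29.5%, 20.4% and 20.6% higher in the stem gate. The members' median differences were 2.31, 3.16 and 2.53 log2 units, beside 0.03, 0.07 and -0.01 over all genes. In MPP3 the calls of Meg3, Dlk1 and Ndn rested on 1, 2 and 6 UMIs in that gate. The Dlk1 call there (3.16 ± 0.99, adjusted p = 0.0150) ended without either Jarid2 KO library. Gates cut at the outer quintiles ended the MPP3 calls of Dlk1, Meg3 and Igf2r. Cells of the stem gate carried 9465 to 11835 UMIs (medians by library) and MPP4 cells 11328 to 13371, so after thinning each cell to 5000 UMIs the share with a Grb10 UMI was 30.6% to 42.5% in the stem gate and 0.944% to 3.79% in MPP4. For Meg3 these shares were 7.40% to 14.99% and 0% to 3.85%. Without thinning they were 48.5% to 63.4% and 1.97% to 7.98% for Grb10, and 9.67% to 20.4% and 0.248% to 6.51% for Meg3.

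**Figure D1:**
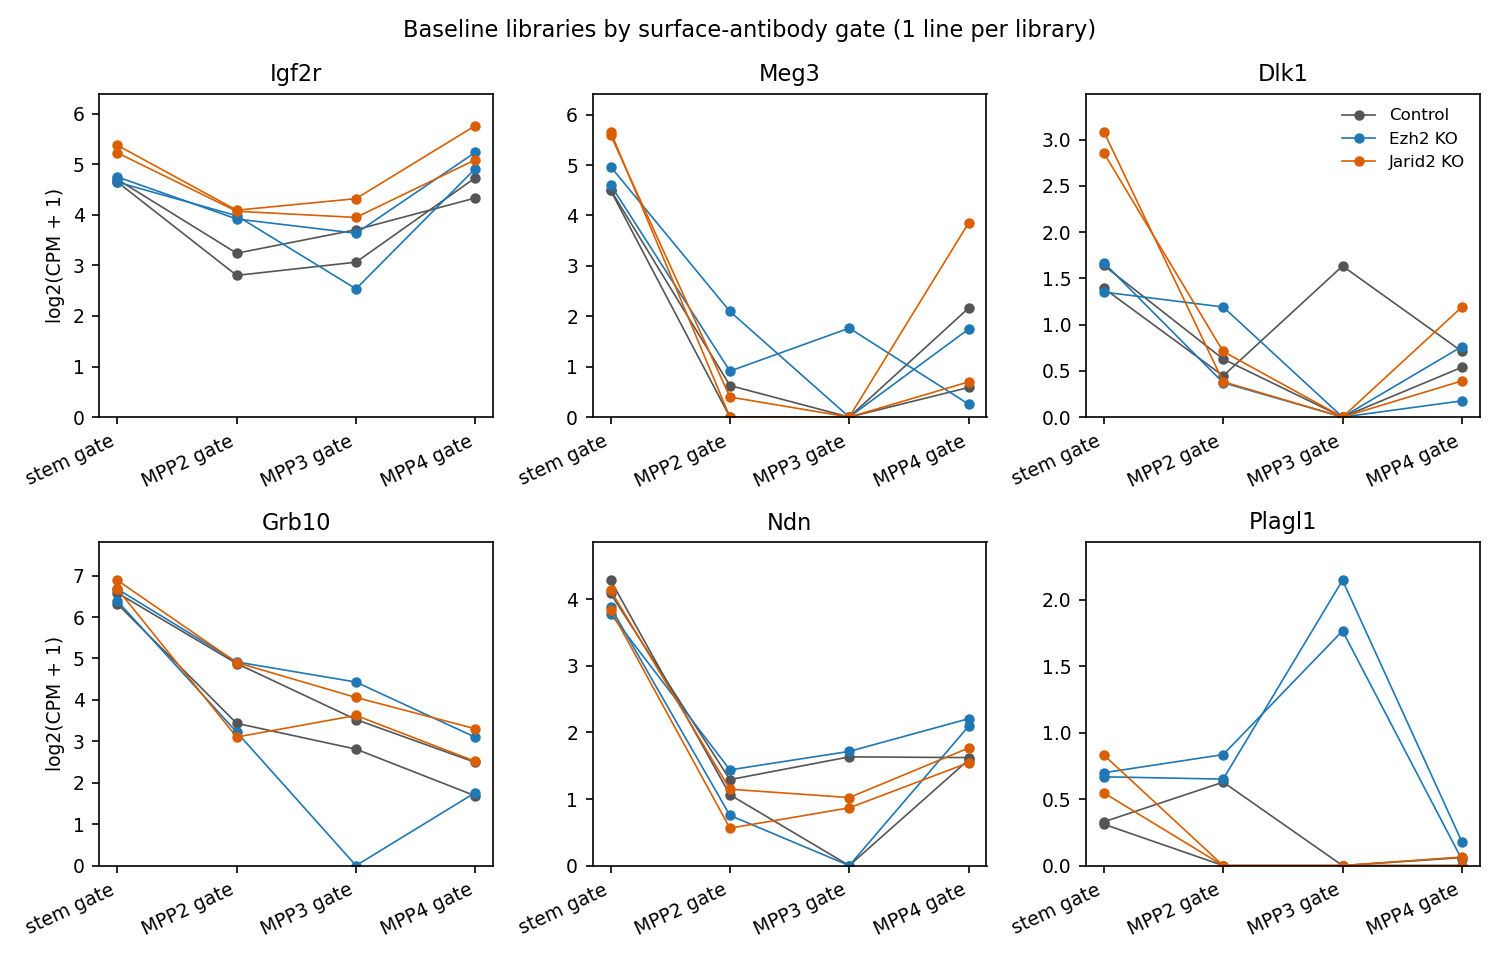
Level of Igf2r, Meg3, Dlk1, Grb10, Ndn and Plagl1 in the 4 baseline surface gates, as log2(CPM + 1), with 1 line per library. Grb10, Meg3 and Ndn are highest in the stem gate in all 6 libraries, and Igf2r overlaps between MPP4 and the stem gate.

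Clusters of cells built from gene expression, with the members and other listed imprinted genes left out of the clustering genes, are given as a description without a test. Averaged over baseline libraries, the stem-like class, named from its own markers, had the highest mean of the 11 classes for H19, Dlk1, Meg3, Mest, Peg3, Grb10 and Ndn. Grb10 was also read at 67.7 ± 15.001 CPM (n = 6) in megakaryocyte-like cells and 60.02 in erythroid-like cells, beside 85.5 ± 12.8 in stem-like cells, and at 2.45 ± 2.84 in B cell-like cells. Igf2r had its highest mean in T or innate lymphoid-like cells, 46.4 ± 14.9 CPM, a class of 83 to 312 cells per library in which different clusters dominated in the female Ezh2 KO library and in the others. Its means in stem-like (29.5 ± 8.80), erythroid-like (28.8 ± 2.46), lymphoid-like (28.7 ± 11.97) and cycling-like cells (26.5 ± 8.02) lay within 1 SD of each other, and the lowest mean among classes seen in at least 5 libraries, 7.27 ± 5.66, was in an unnamed cluster led by Selp, Ccl5 and Ffar2. Plagl1 was highest in megakaryocyte-like cells at 1.68 ± 1.11 CPM, from 17 UMIs. Igf2 had its highest mean in T or innate lymphoid-like cells, 2.08 ± 2.27 CPM from 9 UMIs, and 0.553 ± 0.172 from 66 UMIs in stem-like cells.

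**Figure D2:**
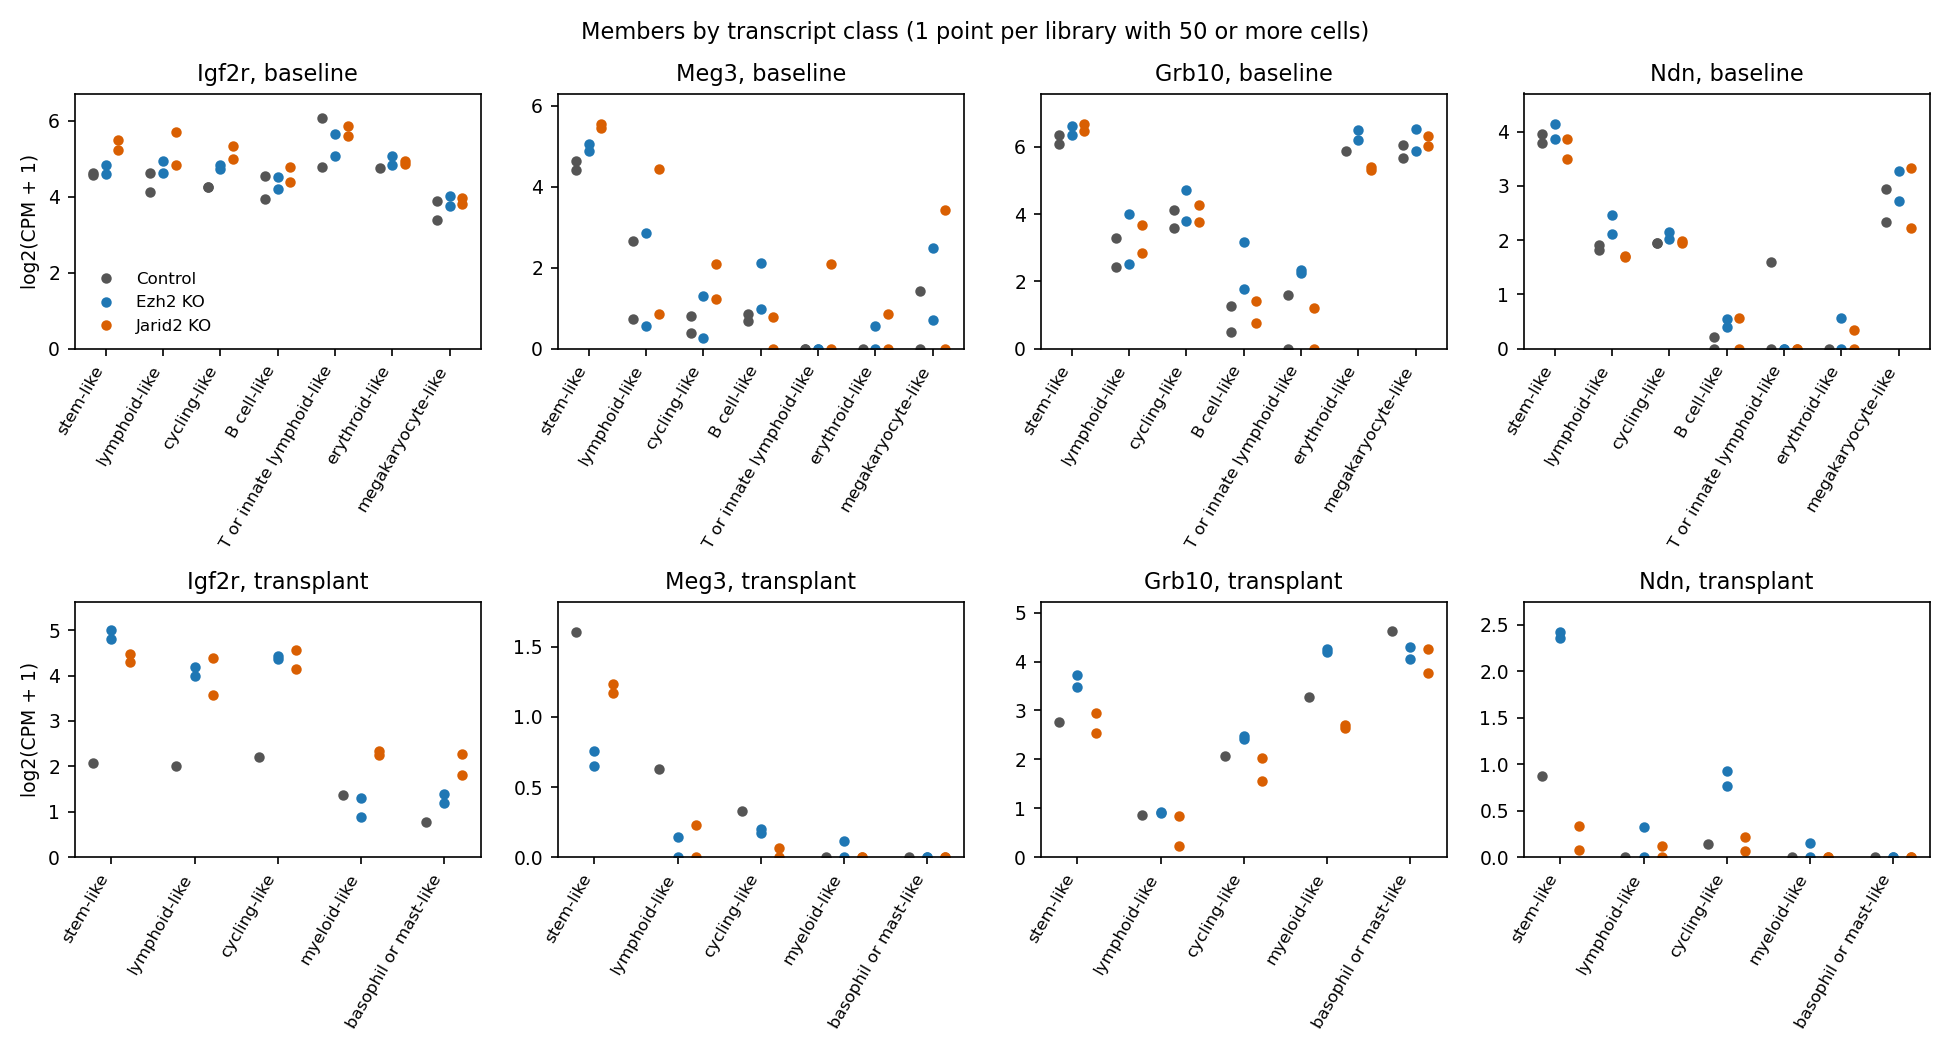
Level of Igf2r, Meg3, Grb10 and Ndn in each cell class, as log2(CPM + 1), for libraries with at least 50 cells of the class. At baseline Meg3 and Ndn peak in the stem-like class, Grb10 is also high in megakaryocyte-like and erythroid-like cells, and Igf2r is spread over many classes.

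In whole baseline libraries Igf2r, Meg3 and Dlk1 were higher in the libraries labelled Jarid2 KO than in either other genotype, and against Ezh2 KO all 3 differences passed. Igf2r was read at 15.9 and 17.2 CPM in the male and female Control, 20.5 and 22.2 in Ezh2 KO, against 27.4 and 36.5 in Jarid2 KO. The 3 genotypes did not overlap. Jarid2 KO exceeded Ezh2 KO by 0.55 ± 0.09 log2 units (adjusted p = 0.0406), while the differences from Control, 0.96 ± 0.09 for Jarid2 KO (0.0961) and 0.41 ± 0.09 for Ezh2 KO (0.0814), did not pass.

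Meg3 was read at 4.93 and 6.37 CPM in Control, 4.50 and 8.74 in Ezh2 KO, against 11.4 and 17.2 in Jarid2 KO. Both Jarid2 KO libraries lay above the other 4, by 1.12 ± 0.14 over Ezh2 KO (adjusted p = 0.0247) and by 1.34 ± 0.14 over Control, which did not pass (0.104). Its neighbour Dlk1 followed, at 0.929 and 0.927 CPM in Control, 0.609 and 0.911 in Ezh2 KO as against 1.90 and 1.86 in Jarid2 KO. The rise over Ezh2 KO was 1.30 ± 0.21 (adjusted p = 0.0375) and the difference from Control 1.04 ± 0.21 (0.242). Beyond them, Rian, a noncoding RNA downstream of Meg3, was read at 0.798 and 0.896, 0.585 and 1.52, and 1.75 and 2.52 CPM in the same order, while in the flanking genes Wdr25 (7.09 to 9.12) and Begain (1.05 to 1.49) Jarid2 KO and Control overlapped.

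Plagl1 was the only member to pass between Ezh2 KO and Control. It had 0.107 and 0.0916 CPM in Control, 0.324 and 0.385 in Ezh2 KO, next to 0.221 and 0.228 in Jarid2 KO, from 145 UMIs in all. The rise in Ezh2 KO was 1.87 ± 0.31 log2 units (adjusted p = 0.0483). B cell-like cells held 20 of 41 and 24 of 44 Plagl1 UMIs in the Ezh2 KO libraries and 0 to 3 in each other library. They made up 12.8% to 21.6% of cells in Ezh2 KO and 3.11% to 7.01% in the other libraries, and their part in the rise was not tested. The call was lost without any 1 of the 6 libraries (adjusted p up to 0.191), with DESeq2, and without the 1 to 8 cells per library that carried stromal genes. Those cells held 8 of 20 and 3 of 22 Plagl1 UMIs in the Jarid2 KO libraries and at most 1 in each other library, and without them the difference of Jarid2 KO from Control went from 1.19 ± 0.33 (adjusted p = 0.341) to 0.83 ± 0.40 (0.495). Without the female Jarid2 KO library Igf2r passed in place of Plagl1, by 0.41 ± 0.06 (adjusted p = 0.0488).

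For the other members no genotype difference in whole baseline libraries passed in edgeR. Grb10 was read at 23.999 and 32.5 CPM in Control, 21.9 and 37.9 in Ezh2 KO, with 32.3 and 42.0 in Jarid2 KO, with the female library higher than the male one in each genotype. Within each sex Jarid2 KO was the highest, 0.42 ± 0.10 log2 units above Control (adjusted p = 0.280) and 0.33 ± 0.10 above Ezh2 KO (0.113). Ndn lay between 4.42 and 5.62 CPM in all 6 libraries and Mest between 0.584 and 0.794. Peg3 had 7 to 16 UMIs per library, H19 had 5 to 17 and Igf2 had 7 to 22, so small differences were not detectable at this depth.

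Of the 10 members, 3 passed between Jarid2 KO and Ezh2 KO, all higher in Jarid2 KO, where 5.91% of 18177 genes passed and 1.49% were higher. Between Ezh2 KO and Control 1 passed (3.47% of genes), and between Jarid2 KO and Control edgeR passed 0 (0.033%). In that edgeR comparison 5 members had an unadjusted p under 0.05, beside 2095 of the 18177 genes. In the last comparison DESeq2 passed 3, Grb10, Meg3 and Igf2r. The share of all genes passing DESeq2 is not given here, so this count has no background beside it. Members' median differences were 0.44, 0.09 and 0.53 log2 units in these 3 comparisons, beside 0.01, -0.00 and 0.00 for all genes. The comparisons share libraries, so they are not independent. Leaving out either Jarid2 KO library ended the Igf2r, Meg3 and Dlk1 calls against Ezh2 KO; the male Ezh2 KO library also decided Igf2r and Dlk1, and the female one Igf2r. The estimates without 1 library ranged from 0.39 to 0.71 for Igf2r, 0.92 to 1.35 for Meg3 and 1.03 to 1.59 for Dlk1 (adjusted p over all alternatives up to 0.150, 0.213 and 0.239). The summed level of 15 stem cell markers moved the same way, at 2165 and 2181 CPM in the Controls, 1743 and 2002 in Ezh2 KO as against 2430 and 2442 in Jarid2 KO. In such sums over all cells, more cells of a type and more RNA per cell cannot be told apart. By class, stem-like cells made up 28.1% and 25.7% of Control, 18.4% and 23.9% of Ezh2 KO and 31.1% and 29.1% of Jarid2 KO cells. The part of these shares in the whole-library differences was not tested.

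**Figure D3:**
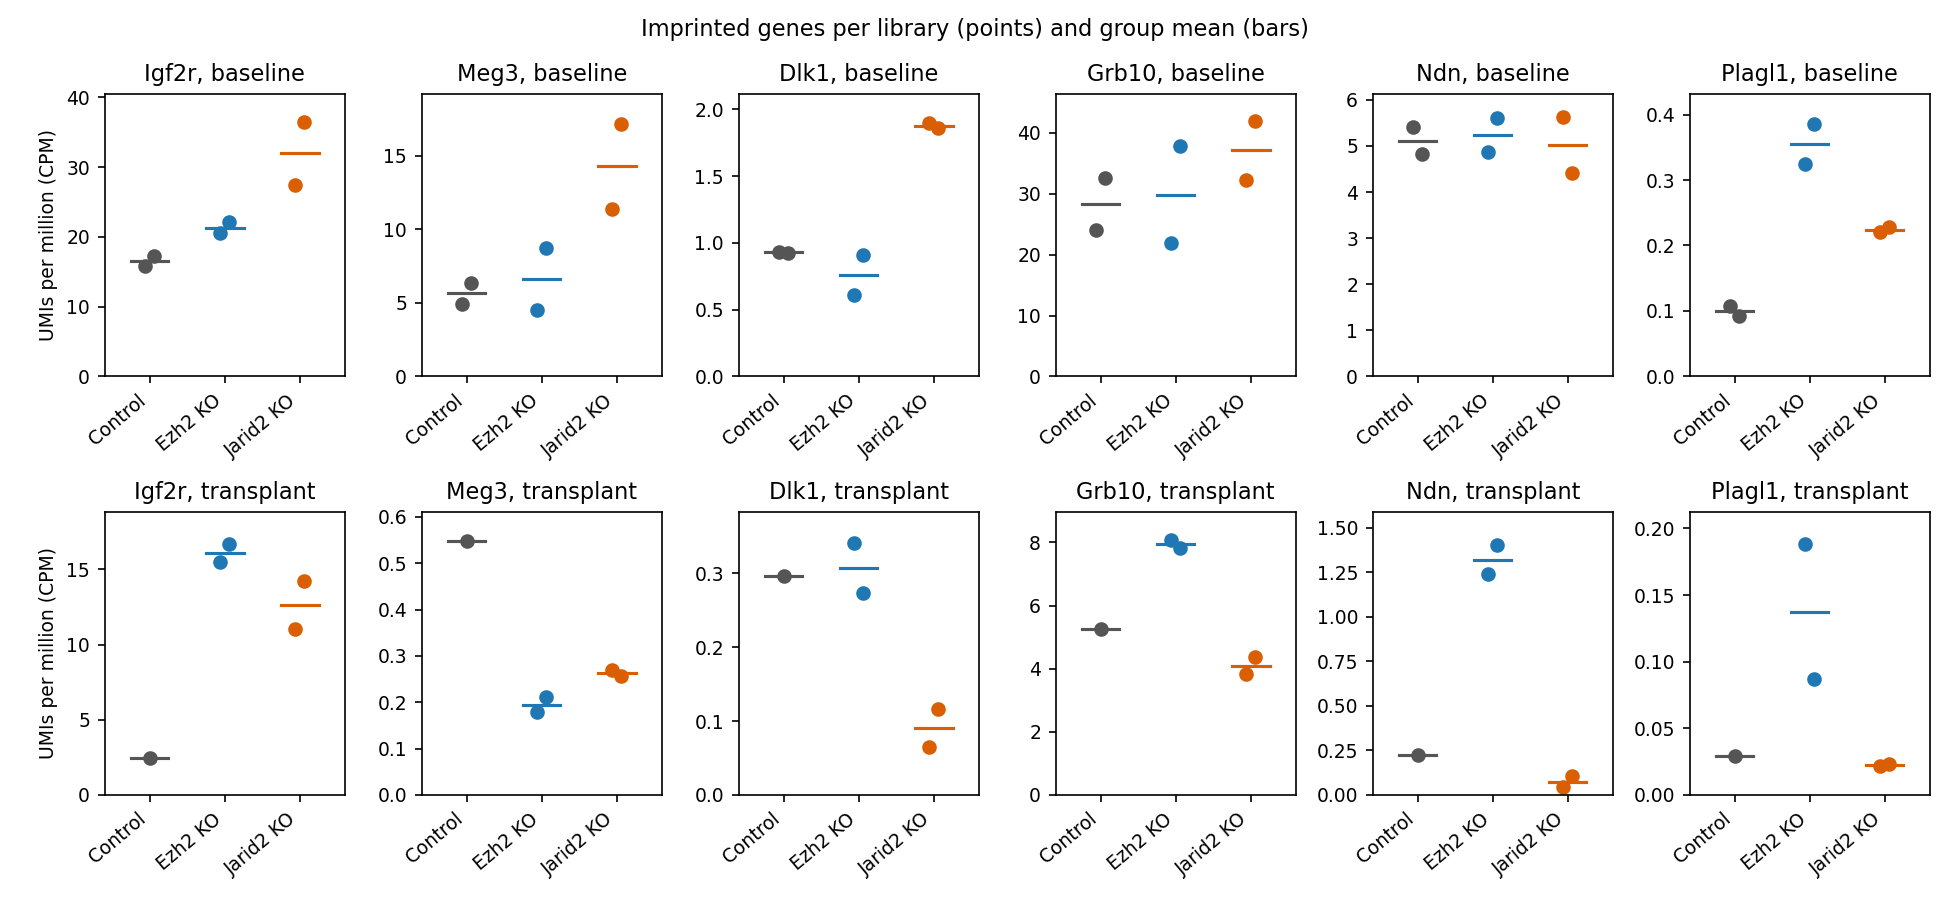
CPM of Igf2r, Meg3, Dlk1, Grb10, Ndn and Plagl1 in each library (points) with group means (bars), baseline in the upper row and transplant in the lower row. Igf2r, Meg3 and Dlk1 are highest in Jarid2 KO at baseline, and Igf2r is lowest in the Control library after transplantation.

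The same contrasts were then made within 1 cell state at a time. In the stem gate Dlk1 was read at 2.11 and 1.62 CPM in Control, 2.18 and 1.55 in Ezh2 KO, next to 7.49 and 6.24 in Jarid2 KO. Meg3 was read at 21.6 and 21.8, 23.4 and 30.3, and 49.6 and 47.5 CPM, and Igf2r at 24.99 and 24.07, 24.02 and 25.9, and 36.4 and 40.5. For all 3 genes both Jarid2 KO libraries lay above the other 4, and the excess over Ezh2 KO passed: 1.84 ± 0.21 for Dlk1 (adjusted p = 0.0250), 0.82 ± 0.11 for Meg3 (0.0358) and 0.58 ± 0.08 for Igf2r (0.0432), with 0.648% of 14961 genes passing. Against Control, edgeR passed no member and no gene (0%), while 5 members and 978 of the 14961 genes had an unadjusted p under 0.05. The differences of the 3 genes from Control were 1.91 ± 0.21, 1.20 ± 0.11 and 0.68 ± 0.08 (adjusted p = 0.178, 0.178 and 0.254). Each of the 3 calls over Ezh2 KO ended without either Jarid2 KO library (adjusted p from 0.0828 to 0.337) and with gate thresholds from pooled Control cells, where the Meg3 difference was 0.22 (0.330).

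In the stem-like class, cut from gene expression and holding 1606 to 2260 cells per library, the differences from Control passed. Meg3 was 1.04 ± 0.07 higher in Jarid2 KO than in Control (adjusted p = 0.00175; 20.3 and 23.9 CPM in Control, 42.6 and 46.2 in Jarid2 KO). Dlk1 was 1.83 ± 0.23 higher (0.0197), Igf2r 0.84 ± 0.12 higher (0.0281) and Grb10 0.41 ± 0.05 higher (0.0197), with 0.481% of 15189 genes passing. Meg3 was also higher in Ezh2 KO than in Control, by 0.49 ± 0.07 (adjusted p = 0.0282; 28.5 and 32.6 CPM in Ezh2 KO, 0.369% of genes passing). This call ended without the male or the female Control (0.145 and 0.0607) and with DESeq2 (0.0989). Of the rises in Jarid2 KO, that of Meg3 passed without any 1 library, while without the male Control the adjusted p was 0.0985 for Dlk1, 0.0723 for Igf2r and 0.110 for Grb10, and without the female Control 0.0652 for Igf2r and 0.0506 for Grb10.

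Outside stem cells Igf2r passed in several states. In the MPP4 gate it was read at 19.1 and 25.6 CPM in Control, 29.1 and 36.7 in Ezh2 KO, with 33.0 and 53.3 in Jarid2 KO. The rise over Control was 0.95 ± 0.09 for Jarid2 KO (adjusted p = 0.00790, with 0.952% of 14923 genes passing) and 0.59 ± 0.09 for Ezh2 KO (0.0290, with 1.29%). In MPP2 it was 1.16 ± 0.22 higher in Ezh2 KO (adjusted p = 0.0206), a gate in which 12.7% of 12855 genes passed. That gate held 842 and 595 cells in the Ezh2 KO libraries against 297 and 382 in Control. Its median CD150 counts were 27 and 39 in Ezh2 KO and 22 and 56 in Control, against 85 to 106 in their stem gates. The part of a different mix of cells in the rise was not tested. The difference of Jarid2 KO from Control there, 1.24 ± 0.22, did not pass (0.155). In the unnamed cluster led by Selp and Ccl5, Igf2r rose from 2.09 and 3.43 CPM in Control to 12.8 and 15.9 in Jarid2 KO, 2.35 ± 0.33 log2 units (adjusted p = 0.00909, 0.301% of 11306 genes passing). Ezh2 KO, at 4.90 and 4.50, lay between them. Another unnamed cluster, led by the DNA-replication genes Ung, E2f1 and Hells, gave a rise of 1.39 ± 0.12 in Jarid2 KO (8.59e-04, with 0.884% passing). In cycling-like cells the rise was 0.96 ± 0.11 (0.0186, with 0.907%) and in lymphoid-like cells 0.99 ± 0.13 (0.0132, with 1.19%). The lymphoid-like class joined several clusters, of which 1 held 723 cells of the female Control and 19 of the female Jarid2 KO library. The part of this mix in the rise was not tested. The MPP4 call for Jarid2 KO ended without the female Control (adjusted p = 0.0540), that for Ezh2 KO without either Control or the male Ezh2 KO library (0.101 to 0.176) and with pooled Control thresholds (0.0508), and the MPP2 call without the female Control or either Ezh2 KO library (0.0791 to 0.0922), with DESeq2 (0.0800) and with raw antibody counts (0.71, 0.168). The call in cycling-like cells ended without the female Jarid2 KO library (0.154), and those in lymphoid-like cells and both unnamed clusters passed without any 1 library.

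Meg3 also passed in the MPP4 gate, by 1.70 ± 0.30 in Jarid2 KO over Control (adjusted p = 0.0464) and 2.36 ± 0.30 over Ezh2 KO (0.00826, with 2.62% of genes passing). Without the female Jarid2 KO library these were 0.60 (0.762) and 1.29 (0.404). The first was 0.53 (0.816) without the female Control and also ended without either Ezh2 KO library (0.0630 and 0.0633) and with DESeq2 (0.156), and the second ended without the female Ezh2 KO library (0.342). Both ended with gate thresholds from pooled Control cells (0.294 and 0.0675). In each genotype the female library was above the male one: the male libraries read 0.502, 0.194 and 0.623 CPM in Control, Ezh2 KO and Jarid2 KO, and the female ones 3.48, 2.35 and 13.4. The lymphoid-like class gave the same pattern, at 0.678, 0.475 and 0.818 CPM in male and 5.30, 6.27 and 20.8 in female libraries. One lymphoid-like cluster held 723, 767 and 19 cells of the female Control, Ezh2 KO and Jarid2 KO libraries and 0 cells of the male ones. In erythroid-like cells Grb10 was lower in Jarid2 KO (41.2 and 39.1 CPM) than in Ezh2 KO (72.4 and 89.6), by -1.01 ± 0.15 (adjusted p = 2.64e-08, with 5.65% of 10497 genes passing), which did not pass with DESeq2 (0.176). Whether the stem-to-MPP4 difference itself depended on genotype was tested directly, and edgeR and DESeq2 each passed 0 of 9 members in each of the 3 contrasts (0%, 0.108% and 0.216% of 15766 genes passed edgeR). Igf2, Plagl1 and Peg3 had only 1, 7 and 9 UMIs in the MPP4 gate over the 6 libraries. The test could hardly pass these members, so their failure to pass says little. Of the 9 members 0, 2 and 1 had an unadjusted p under 0.05 in edgeR, beside 597, 906 and 1103 of the 15766 genes. The smallest p was that of Ndn between Ezh2 KO and Control, -1.10 ± 0.20 (adjusted p = 0.158): it read lower in the stem gate (13.8 and 12.8 against 18.5 and 16.0 CPM) and higher in MPP4 (3.27 and 3.61 against 2.01 and 2.08).

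Calls within gates and classes were sensitive to single libraries. The counts below pool states with unlike shares of all genes passing, so they describe the stability of calls only. Between Jarid2 KO and Control, 0 of 14961 genes passed in the stem gate and 142 of 14923 in MPP4. Between Jarid2 KO and Ezh2 KO, 1585 of 12013 genes passed in B cell-like and 87 of 15189 in stem-like cells. Over the 4 gates, the number of member calls between Jarid2 KO and Control was 2 and ranged from 0 to 6 when 1 library was left out; the female Control and either Ezh2 KO library moved it. For Ezh2 KO against Control it was 2 and ranged from 0 to 2, moved by any Control or Ezh2 KO library. For Jarid2 KO against Ezh2 KO it was 4 and ranged from 0 to 5, moved by either Jarid2 KO library. Over the baseline classes the count for Jarid2 KO against Control was 10 and ranged from 7 to 12. For Ezh2 KO against Control it was 2 and ranged from 0 to 6, moved by the female Control and either Jarid2 KO library. For Jarid2 KO against Ezh2 KO it was 7 and ranged from 3 to 12, moved by either Control, the female Ezh2 KO and the female Jarid2 KO library.

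Reads of Igf2r and of its antisense partner Airn moved together. Airn had 44.1 and 45.7 CPM in the baseline Controls, 53.0 and 58.9 in Ezh2 KO as against 91.9 and 126 in Jarid2 KO. It rose by 0.93 ± 0.10 in Jarid2 KO over Ezh2 KO (adjusted p = 0.0216). After transplantation Airn had 0.266 CPM in the Control, 2.00 and 1.90 in Ezh2 KO, with 1.98 and 2.24 in Jarid2 KO. How the counting treated strand and introns is not given in the sources used here, so reads in the 28396 shared bases cannot be assigned to either gene with certainty. There were 2.58 to 3.45 Airn UMIs per Igf2r UMI in the baseline libraries and 0.108 to 0.180 in the transplant libraries. The file headers name Cell Ranger 7.2.0 for the first and 6.1.2 for the second, and the part of this difference in the ratio was not tested. Other genes within 500000 bases, a window chosen after the data were seen, were read alongside. C030013G03Rik had 8.26 and 6.05 CPM in the baseline Controls, 10.1 and 7.33 in Ezh2 KO, and 7.05 and 4.68 in the libraries labelled Jarid2 KO, which were the lowest within each sex. Pnldc1 had 1.25 to 1.54 CPM at baseline and after transplantation 0.281 in the Control against 0.0744 to 0.242 in the knockouts. At baseline Map3k4 lay at 40.6 to 43.6 CPM and Slc22a3, itself imprinted in placenta, at 90.3 to 111, lowest in the Ezh2 KO libraries. On the other side Mrpl18 and Tcp1 were read at 151 and 160 and at 169 and 188 CPM in Control, and at 144 and 152 and at 155 and 174 in Jarid2 KO.

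**Figure D4:**
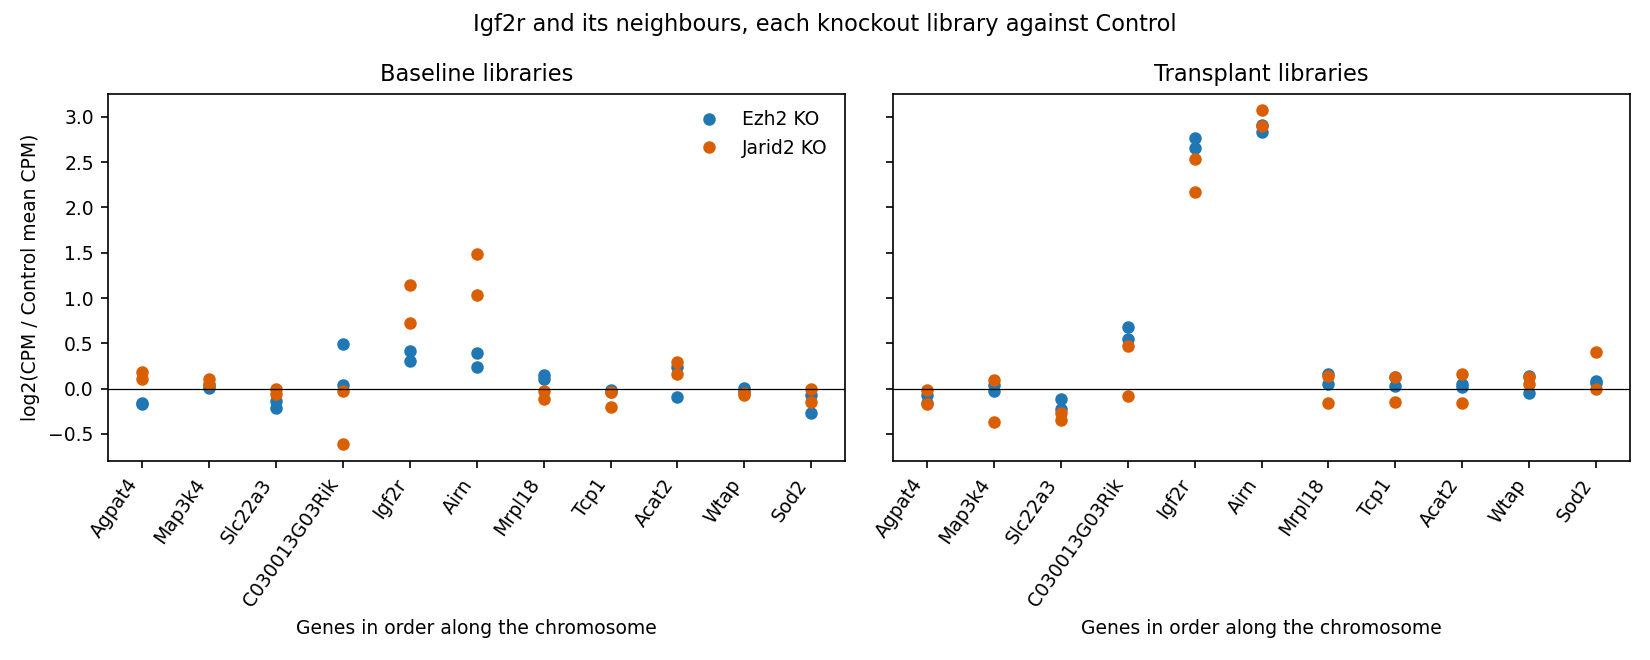
Level of each knockout library relative to the mean of the Control libraries, as log2 of the CPM ratio, for genes in their order around Igf2r on chromosome 17, baseline and transplant separately. Igf2r and Airn stand above 0 in every knockout library of both experiments, Slc22a3 lies below 0 in every one, and each other gene plotted has points on both sides of 0. Pnldc1 and 4732491K20Rik, which had few reads, are not plotted.

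After transplantation Igf2r separated both knockouts from the Control library. It was read at 2.45 CPM in the Control (166 UMIs), 15.5 and 16.7 in Ezh2 KO, next to 11.0 and 14.2 in Jarid2 KO. All 4 knockout libraries lay above the Control, by 2.63 ± 0.16 log2 units in Ezh2 KO (adjusted p = 8.32e-04) and 2.30 ± 0.16 in Jarid2 KO (0.0100). The knockouts did not differ beyond the threshold (-0.33 ± 0.11, adjusted p = 0.110). With 1 Control library its own spread is unmeasured, and the test takes it from the knockouts. By cell sex, Control cells with Y-linked reads and no Xist had 2.78 CPM and Control cells with Xist and no Y-linked reads had 2.32, against 10.6 and 11.6 in the first Jarid2 KO library and 13.2 and 15.2 in the second. Male-type cells of Ezh2 KO had 14.9 and 15.5 CPM. Each Ezh2 KO library held fewer than 50 female-type cells, the minimum for a value. By cell sex, Ezh2 KO can therefore be set beside the Control in male-type cells only, and its difference in female-type cells is unknown. Summed B cell markers (10 of 10 read in each library) were also higher in the knockouts, at 135 CPM in the Control, 739 and 587 in Ezh2 KO, with 467 and 649 in Jarid2 KO. Summed lymphoid markers were at 674 CPM in the Control, 1424 and 1392 in Ezh2 KO, with 1078 and 1339 in Jarid2 KO.

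The Igf2r difference was as large within 1 class. In stem-like cells Igf2r had 3.18 CPM in the Control, 26.8 and 30.9 in Ezh2 KO as against 18.6 and 21.3 in Jarid2 KO. The rises over Control were 3.11 ± 0.17 in Ezh2 KO (adjusted p = 3.46e-04, 2.59% of 13612 genes passing) and 2.57 ± 0.18 in Jarid2 KO (0.00808, 0.176% passing). Here Jarid2 KO was also below Ezh2 KO, by -0.54 ± 0.10 (adjusted p = 0.0239, 5.21% passing). Without the first or second Ezh2 KO library none of the 3 passed in this class, with 3.18 (0.0565) and 3.03 (0.345) for Ezh2 KO over Control, 2.57 (0.414) and 2.57 (0.899) for Jarid2 KO over Control, and -0.61 (0.186) and -0.46 (0.305) between the knockouts. The last also ended without the first Jarid2 KO library (0.0640) and with DESeq2 (0.113). Cycling-like cells gave 2.42 ± 0.18 for Ezh2 KO (4.96e-04, with 3.13% of 13335 genes passing) and 2.34 ± 0.18 for Jarid2 KO (0.0112, with 0.172%). Lymphoid-like cells (2.32 ± 0.40, 0.0170, with 4.11% passing) and a replicating unnamed cluster (2.78 ± 0.48, 0.0389, with 1.24%) passed for Ezh2 KO. In myeloid-like cells the order was different: 1.59 CPM in the Control, 0.857 and 1.46 in Ezh2 KO, next to 3.76 and 4.02 in Jarid2 KO, with Jarid2 KO 1.80 ± 0.28 above Ezh2 KO (adjusted p = 0.00838, 5.34% of 12441 genes passing), which ended without the first Ezh2 KO or either Jarid2 KO library (0.0622 to 0.0762).

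Ndn was higher in the Ezh2 KO libraries than in the other transplant libraries. It had 0.222 CPM in the Control (15 UMIs), 1.24 and 1.40 in Ezh2 KO (138 and 113 UMIs), with 0.0433 and 0.105 in Jarid2 KO (4 and 9 UMIs). Ezh2 KO stood 2.48 ± 0.42 above the Control (adjusted p = 0.0273), and Jarid2 KO stood below Ezh2 KO by -4.12 ± 0.36 (0.00174). The difference between Jarid2 KO and Control, -1.64 ± 0.52, did not pass (0.423). Leaving out the second Ezh2 KO library, or keeping only male-type cells, ended the call against the Control (adjusted p over all alternatives up to 0.250). In stem-like cells alone Ndn had 0.833 CPM in the Control, 4.15 and 4.36 in Ezh2 KO, with 0.0570 and 0.257 in Jarid2 KO (2.28 ± 0.44, adjusted p = 0.0463, and -4.75 ± 0.44, 0.00168). Without the first or second Ezh2 KO library neither passed (0.333 and 0.420, and 0.0982 and 0.230). Stem-like cells made up 27.3% of the Control, 32.4% and 35.9% of Ezh2 KO and 25.9% and 27.0% of Jarid2 KO cells. Summed erythroid, endothelial and stromal markers were also highest in Ezh2 KO and lowest in Jarid2 KO. Endothelial markers (12 of 13 read in each library) had 155 CPM in the Control, 226 and 245 in Ezh2 KO, next to 125 and 151 in Jarid2 KO. Stromal markers had 23.9 CPM in the Control, 36.1 and 34.1 in Ezh2 KO, next to 22.6 and 19.8 in Jarid2 KO, with 8 to 13 of 14 read and Col3a1 at 0 in all 5 libraries. Their part in the whole-library difference was not tested.

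Grb10 differed between the knockouts. It had 5.25 CPM in the Control, 8.09 and 7.83 in Ezh2 KO as against 3.83 and 4.36 in Jarid2 KO. The Control lay between them, and Jarid2 KO was below Ezh2 KO by -0.93 ± 0.11 (adjusted p = 0.00388). The largest of its class differences was in myeloid-like cells, with 8.64 CPM in the Control, 17.3 and 18.1 in Ezh2 KO, next to 5.51 and 5.26 in Jarid2 KO (-1.70 ± 0.13, adjusted p = 4.98e-04). Summed myeloid markers ran the other way, at 10889 CPM in the Control, 8378 and 8722 in Ezh2 KO, with 13036 and 17263 in Jarid2 KO. Summed erythroid markers (12 of 12 read in each library) had the same order as Grb10, at 263 CPM in the Control, 406 and 445 in Ezh2 KO, next to 220 and 221 in Jarid2 KO. The part of either list in the whole-library difference was not tested.

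Another 3 members were tested and did not pass. Dlk1 had 0.296 CPM in the Control, 0.341 and 0.273 in Ezh2 KO as against 0.0649 and 0.117 in Jarid2 KO (Jarid2 KO against Ezh2 KO -1.74 ± 0.43, adjusted p = 0.0503). Meg3 had 0.547, 0.179 and 0.211, and 0.271 and 0.257 CPM, with its UMIs in few cells: in the first Jarid2 KO library 25 UMIs came from 9 cells, and 10 of them from 1 cell. Plagl1 had 2 UMIs in the Control, 21 and 7 in Ezh2 KO, next to 2 and 2 in Jarid2 KO. H19, Igf2, Mest and Peg3 did not pass the low-count filter, with at most 4, 2, 7 and 0 UMIs in a library.

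Of the 6 members tested after transplantation, 2 passed between Ezh2 KO and Control, where 4.84% of 15758 genes passed. Without the second Ezh2 KO library this count was 1. Between Jarid2 KO and Control 1 passed (0.336%), and 2 passed between the knockouts (12%). The members' median differences were 1.33, -0.76 and -1.34 log2 units, beside 0.01, 0.01 and 0.00 for all genes. Both comparisons with Control use the same library.

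Whether a genotype difference was itself different in the transplant and baseline libraries was tested as an interaction over 18938 genes. All 10 members entered this fit, but H19, Igf2, Mest and Peg3 had 7, 8, 18 and 0 UMIs over the transplant libraries. The test could hardly pass these members, so their failure to pass says little. For Ezh2 KO against Control 2 of 10 members passed, Igf2r and Ndn (0.734% of genes passed). For Jarid2 KO against Ezh2 KO 4 passed, Igf2r, Ndn, Grb10 and Dlk1, all lower after transplantation (4.64% of genes passed, 2.85% lower). For Jarid2 KO against Control edgeR passed 0 (0.0211% of genes), while 5 members and 1235 of the 18938 genes had an unadjusted p under 0.05. DESeq2 passed 2 members there, and its share of all genes is not given here. The first count fell to 1 without any 1 of 7 libraries, namely both baseline Controls, the female Ezh2 KO, both baseline Jarid2 KO and both transplant Ezh2 KO libraries, and the other went from 4 to 2 without the first transplant Ezh2 KO library. Counting software, antibody staining and transplantation all differed between the experiments and cannot be told apart.

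**Figure D5:**
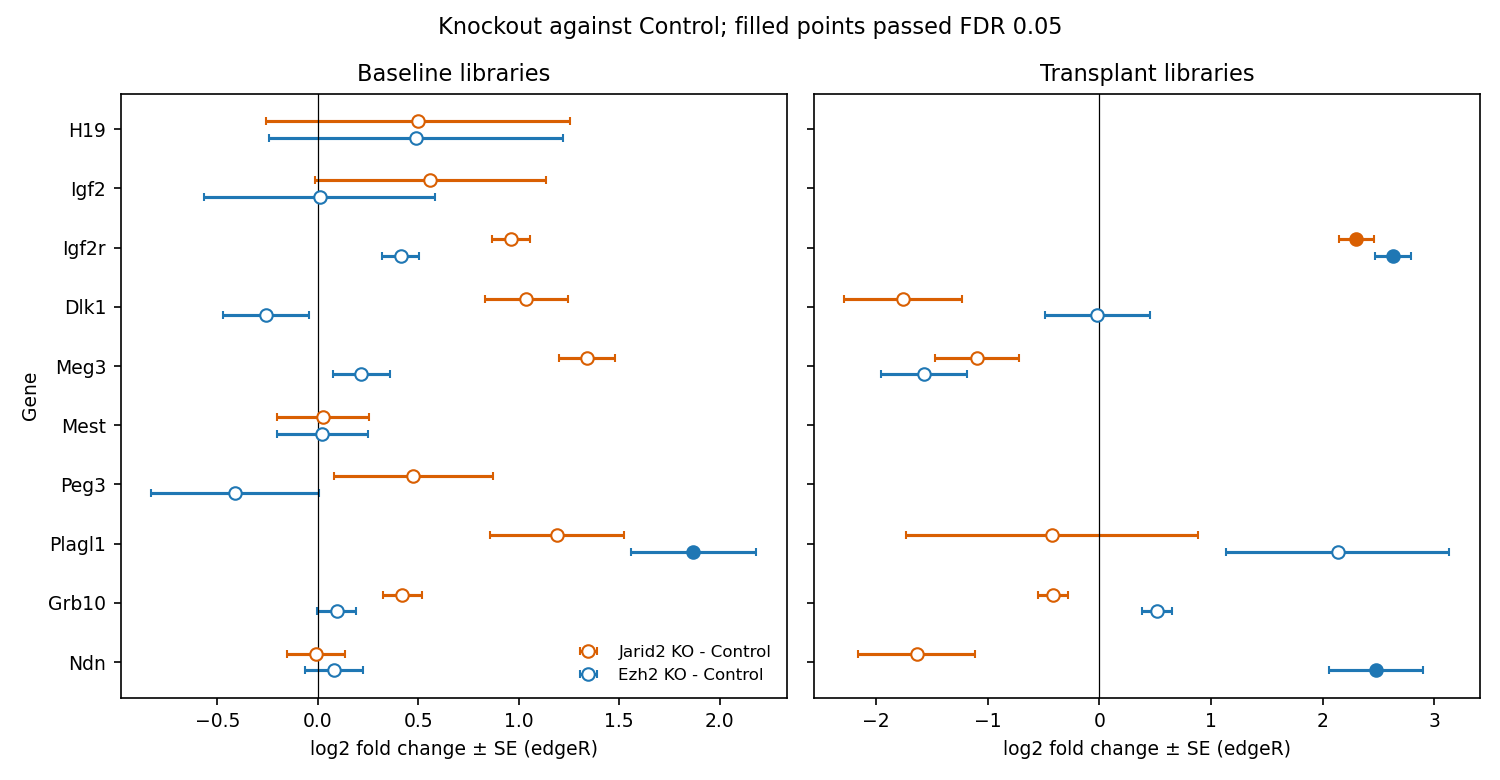
Log2 fold change of each member between each knockout and Control, with standard errors, at baseline and after transplantation; filled points passed the test, and members that were not tested after transplantation are left blank. Igf2r passes after transplantation for both knockouts, Ndn for Ezh2 KO only, and at baseline only Plagl1 in Ezh2 KO passes.

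For comparison, 48 other imprinted genes were listed. Of these, 35 were tested after transplantation and 10 were lower in Jarid2 KO than in Ezh2 KO, with none higher, where 7.67% of all genes were lower; the list's median was -0.23 log2 units against 0.00. The growth-arrest gene Cdkn1c fell by 1.30 ± 0.11 (4.16 against 10.4 CPM on average, adjusted p = 0.00146), and Peg13 fell by 0.65 ± 0.11 (0.0149). Against the Control, 5 were higher in Ezh2 KO, among them Cdkn1c (0.83 ± 0.14, adjusted p = 0.0256) and Sgce (0.82 ± 0.16, 0.0385), and none was lower, where 3.4% of all genes were higher. At baseline 2 of 39 passed between the knockouts, 1 of them Airn, where 5.91% of all genes passed, so this count is near the background. In the surface gates 14 of 34 were higher and 4 lower in stem than in MPP4, where 20.6% of all genes were higher and 3476 of 15663 lower, with Phlda2 (3.57 ± 0.23, adjusted p = 1.15e-10) and Cdkn1c (2.81 ± 0.29, 1.32e-07) furthest apart. Of 30 IGF and insulin signalling genes, 23 were tested after transplantation and 2 were lower in Jarid2 KO than in Ezh2 KO, among them Foxo1 (-0.86 ± 0.10, adjusted p = 0.00458). With 7.67% of all genes lower there, this count is near the background. Of 12 genes that maintain imprints, 10 were tested. Between the knockouts at baseline 1 passed, where 5.91% of all genes did, a single call close to the threshold: Uhrf1, which recruits the maintenance methyltransferase, was lower in Jarid2 KO (-0.36 ± 0.07, adjusted p = 0.0489). None of the 10 passed in edgeR between the knockouts after transplantation, where 12% of all genes did. There 1 of the 10 had an unadjusted p under 0.05, beside 4162 of 15758 genes.

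Over the 24 sums of 6 libraries and 4 gates, the genes whose log2(CPM + 1) ran most like Igf2r, Meg3 and Grb10, the members with a mean of at least 5 CPM there, were found among 9113 genes of at least 10 CPM. These sums share libraries, depth and gates, so the correlations are descriptions. For Grb10 they were Tgm2 (Pearson r = 0.93), Trim47 (0.92) and Ghr (0.92), for Meg3 Cpne8 (0.91), Nbea (0.91) and the imprinted gene Sgce (0.90), and for Igf2r Il1rapl2 (0.89), St3gal2 (0.88) and Rab2b (0.86).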

How the data were processed

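Single-cell 3′ RNA was measured in 11 libraries. The authors deposited UMI counts per gene and cell, with antibody counts in the same baseline matrices; per the file headers, Cell Ranger 7.2.0 (baseline) and 6.1.2 (transplant) made them, while the submitters' processing notes name Cell Ranger 3.1.0, Seurat 3.0, Partek and mm10. Kept cells had at least 1000 UMIs, at least 500 genes and at most 10% mitochondrial UMIs; the highest Scrublet scores (0.8% of cells per 1000 barcodes) were removed as doublets. UMIs were summed per library and cell state and tested with edgeR 4.0.16 (R 4.3.3; TMM, quasi-likelihood, filterByExpr, Benjamini-Hochberg), with DESeq2 1.42.0 as an alternative. Baseline fits used 3 genotypes with a sex term, transplant fits 3 genotypes; gate fits kept the library as a block. Gates used within-cell centred log antibody counts. Classes came from Leiden clusters of Control cells (scanpy 1.11.5), named from listed markers, with other libraries assigned by nearest neighbours. Counting intervals cover counting error only, at 95%.

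At baseline, replicate 1 is male and replicate 2 female per the labels, so the numbers pair samples by sex; deviations of same-numbered libraries from their group means correlated at 0.662, 0.802 and 0.617 over 9142 genes. All 10 members are named. From the other lists, up to 5 genes per contrast were named: those with the largest change among genes that passed, with a mean of at least 5 CPM and no overlap between groups. The members and lists were chosen with earlier results of these data known. The scripts were tested on simulated data.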

Additional observations from a re-analysis of the deposited data

Results flagged for a closer look

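For 4 members, a genotype difference itself differed between the transplant and the baseline libraries, by the interaction test of edgeR over 18938 genes. The value given is the log2 change after transplantation minus that at baseline. For Ezh2 KO against Control it was 2.22 ± 0.18 for Igf2r (adjusted p = 0.00267) and 2.40 ± 0.39 for Ndn (0.0398). The Ndn value lost its call without 8 of 10 libraries in turn and kept its direction.

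For Jarid2 KO against Ezh2 KO the differences were -4.02 ± 0.36 for Ndn (adjusted p = 0.00170), -3.04 ± 0.43 for Dlk1 (0.00981), -1.26 ± 0.14 for Grb10 (0.00403) and -0.87 ± 0.14 for Igf2r (0.0169). Dlk1 was higher in Jarid2 KO than in Ezh2 KO at baseline and read lower after transplantation, from 6 and 10 UMIs in the transplant Jarid2 KO libraries.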

How the results depend on the processing

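Of the members' log2 changes, 87 were recomputed, 868 times in all, and none of these reversed. Of the recomputations 713 kept their side of the threshold, 141 lost a call and 14 gained one. Member changes outside the 87 are not covered by this statement. Counts of members that passed moved as follows, and the causes were not tested unless fewer genes or samples entered. Shares of all genes under the alternatives are not given, so the counts in this section describe the stability of calls only. With DESeq2 the counts were 3 for baseline Jarid2 KO against Control (0 with edgeR), 2 for its interaction with experiment (0), 1 for Ezh2 KO against Control within gates (2), 1 and 4 within baseline classes for Ezh2 KO against Control and Jarid2 KO against Ezh2 KO (2 and 7), and 4 within transplant classes for Jarid2 KO against Control (2). Without a low-count filter, baseline Jarid2 KO against Control gave 2. Baseline Ezh2 KO against Control gave 0 (1) with RLE scaling, with only the 2 groups compared, and without cells with stromal genes, an alternative chosen after seeing the data. Among genes of at least 10 CPM, where fewer members are tested, it gave 0, baseline Jarid2 KO against Ezh2 KO 1 (3), the transplant contrasts 1 for Ezh2 KO against Control (2) and 0 between knockouts (2), and the gates 2, 2 and 1 (6, 5 and 5). Male cells only gave 1 for transplant Ezh2 KO against Control. Gates cut at the outer quintiles gave 2 for stem against MPP3 (5). Raw antibody counts gave 1 for Ezh2 KO against Control within gates, and pooled Control thresholds 1 for Jarid2 KO against Ezh2 KO (4).

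With no replicate block (no sex term), baseline Ezh2 KO against Control and Jarid2 KO against Ezh2 KO each gave 0, their interactions with experiment 1 and 2, and the contrasts within gates 0, 0 and 1. The transplant numbers did not pair libraries (correlation 0.0188).

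Leaving out 1 library in turn gave these ranges, first for Jarid2 KO and then for Ezh2 KO against Control, and last for Jarid2 KO against Ezh2 KO. At baseline they were 0 to 1 (1 without the male Control), 0 to 1 and 0 to 3. After transplantation they were 1 to 1, 1 to 2 and 2 to 3, and for the interaction with experiment 0 to 0, 1 to 2 and 2 to 4. Gates gave 5 to 6, 4 to 6 and 4 to 5 for stem against MPP2, MPP3 and MPP4, and 0 to 0 for all 3 genotype by gate contrasts. Within gates they were 0 to 6, 0 to 2 and 0 to 5. Within baseline classes they were 7 to 12, 0 to 6 (moved by the female Control and either Jarid2 KO) and 3 to 12 (either Control, the female Ezh2 KO, the female Jarid2 KO). Within transplant classes they were 2 to 4 (first Jarid2 KO), 3 to 5 (either Ezh2 KO) and 2 to 7 (either Ezh2 KO, first Jarid2 KO). Depth limits H19, Igf2, Peg3, Plagl1 and Mest.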
